A study of Arabidopsis thaliana with 4 samples.

Results

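The probe sets described here had a signal at least 2-fold lower with bleomycin in the ku80 mutant of Arabidopsis thaliana, while their signal in wild type stayed near its untreated level. They were chosen from the deposited intensities after values below 28 were raised to that floor and log2 was taken. A member had a difference of -1 or lower between ku80 with and without bleomycin. Its difference between wild type with and without bleomycin had to lie between -0.5 and 0.5, and so did its difference between untreated ku80 and untreated wild type, which allows up to 1.41-fold either way. Of 22746 gene probe sets on the array, 110 met these limits, and 15350 were above the floor on at least 1 array and are called measured. The rule used all 4 arrays, so the differences that follow describe how the members were chosen and none was tested.

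Whole plants of the Ws-2 accession were profiled on ATH1 arrays, whose probe sets each measure 1 transcript or a few related ones. The 4 groups were untreated wild type, wild type given bleomycin at 1 mg per litre for 3 days, the untreated ku80 line with a T-DNA insertion in At1g48050, and ku80 given the same dose for the same time. All groups had reached growth stage 1.06 on MS medium at 23 °C, and each array held RNA from 20 pooled plants. There was 1 array per group, so no value here has a replicate error, and every member rests on the single array of treated ku80. The KU80 transcript itself was not among the named probe sets, which leaves the mutant line unchecked by its own gene.

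Bleomycin is a drug that breaks both strands of DNA. Ku80 pairs with Ku70 to form the Ku complex, a clamp on broken ends in non-homologous end joining. Several of the named members belong to families known in Arabidopsis for fast transcript changes after wounding, touch or microbial elicitors. WRKY proteins are plant transcription factors, calmodulin-like proteins sense calcium, and plant U-box proteins are ubiquitin ligases that mark other proteins for degradation.

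Across the arrays as a whole, the mean without the outer 2% of values at each end was between 100.007 and 100.008, and the share of gene probe sets above the floor was between 59.2% and 60.6%. The scanner background of untreated ku80, 95.8, was below the 105 to 107 of the other arrays. The 9 bacterial spike-in probe sets had a geometric mean of 60.3 on untreated wild type and of 109 to 135 on the others. The 3' to 5' ratio of GAPDH was 0.731 and 0.715 with bleomycin in wild type and ku80 and 0.979 and 0.980 without it. For actin the ratio was lowest on treated ku80, at 5.23, and highest on untreated wild type, at 6.69. For ubiquitin it was 1.61 and 1.42 in untreated and treated wild type and 1.89 and 1.62 in ku80. The part of these in the members' values was not tested. The leaf genes RCA and SBPASE were bright on every array, with RCA between 1758 and 2670 and SBPASE between 489 and 1089. With bleomycin RCA was lower by 0.60 on the log2 scale in ku80 and higher by 0.02 in wild type, and SBPASE was lower by 0.87 in ku80 and by 1.08 in wild type. Of 9 named photosynthesis genes measured, 3 were at least 2-fold lower in ku80 with a median of -0.81, and 1 was in wild type with a median of -0.41. Over all measured probe sets these shares were 5.22% in ku80 and 9.28% in wild type. None of the 9 was a member, where 52 of 8319 measured named probe sets were. The root hair gene EXPA7 lay at or near the floor throughout, at 13.0 to 31.3, and it was the 1 root marker named. In whole plants, fewer cells of a type and less RNA per cell cannot be told apart.

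Of the 110 members, 52 were paired with 1 gene, 2 with several genes and 56 were not listed in the platform table. By size of the difference in ku80, the named members began with WRKY53, AT4G29780, AT2G24600, PUB19 and AT5G52050. The median member was 2.27-fold lower with bleomycin in ku80, and the largest difference was 6.57-fold. There were 75 members between 2 and 2.5-fold, 17 between 2.5 and 3-fold, 12 between 3 and 4-fold and 6 above that. Median intensity over the members was 266 in untreated wild type, 247 in treated wild type, 243 in untreated ku80 and 95.6 in treated ku80. Treated ku80 was the lowest of the 4 arrays for each of the 110, as the limits nearly force, by a median of 2.00-fold below the lowest of the other arrays. Members were brighter than the array at large, with a median of 215 for the mean of 4 arrays against 85.0 for measured probe sets. A probe set had to reach at least 56 in untreated ku80 to become a member, which leaves out dim ones.

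**Figure D1:**
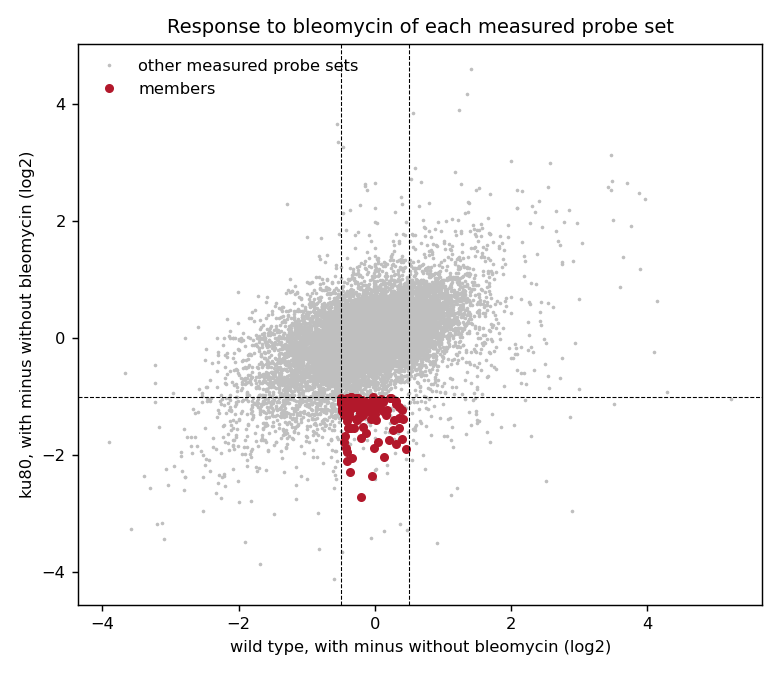
Each point is a measured probe set, with its log2 difference between treated and untreated wild type on the horizontal axis and between treated and untreated ku80 on the vertical axis. Dashed lines mark the limits of -0.5 and 0.5 in wild type and -1 in ku80, and the 110 members in red lie below and between them.

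WRKY53, a transcription factor that promotes leaf senescence, had the largest difference. Its intensity was 167.9 in untreated wild type, 146.4 in treated wild type, 233.9 in untreated ku80 and 35.6 in treated ku80. The treated ku80 value was thus 6.57-fold below untreated ku80 and 4.11-fold below treated wild type, while wild type differed by -0.20 on the log2 scale. Untreated ku80 was 0.48 above untreated wild type, close to the limit of 0.5, which it passed under both other array scalings, so that WRKY53 was then no member. The other 4 WRKY genes named and measured did not meet the limits. Most of the family was not named, as the gene table held 67 WRKY symbols. The 56 members not listed in the platform table could not be assigned to a family. WRKY22, which acts in immune signalling, was 3.14-fold lower in ku80 (157.7 to 50.3) and was also lower by 0.83 in wild type, which kept it out. WRKY20, WRKY47 and WRKY6 were higher with bleomycin in both genotypes, by 0.10 to 0.72 in ku80 and by 0.17 to 0.46 in wild type. Of 6 WRKY genes named, 5 were measured, and 2 of these were at least 2-fold lower in ku80, where 5.22% of all measured probe sets were and 2.79% were at least 2-fold higher. WRKY53, 1 of the 2, is a member chosen on the same ku80 values, so this count is partly set by the rule.

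PUB19 and PUB22 were the named plant U-box members. PUB19, which in Arabidopsis limits responses to drought and abscisic acid, had intensities of 113.7 and 90.5 in untreated and treated wild type and of 116.2 and 19.5 in untreated and treated ku80. The last value was under the floor, so PUB19 was at least 4.15-fold lower with the drug in ku80. PUB22, which dampens immune signalling together with PUB23 and PUB24, had intensities of 236.4, 314.4, 248.6 and 95.6 in the same order. It was 2.60-fold lower in ku80 and 1.33-fold higher in wild type, so treated ku80 stood 3.29-fold below treated wild type.

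The other measured PUB genes did not meet the limits. PUB23 was 5.31-fold lower in ku80, from 475.9 to 89.7, a larger difference than that of PUB22, and missed the limits because wild type was lower by 0.58. PUB24 was lower by 0.47 in ku80 and higher by 0.93 in wild type. PUB49, at 81.1 and 41.4 in untreated and treated ku80, was lower by 0.97 and so fell just short of the limit. PUB43 was higher by 0.60 in ku80 and near level in wild type. PUB25 was lower by 0.53 in ku80 and by 1.42 in wild type. PUB26 was under the floor in untreated and treated ku80 and lower by 0.88 in wild type. Of 22 gene symbols that begin with PUB, 9 were named and 8 measured. Of these 8, 3 were at least 2-fold lower in ku80 and 0 at least 2-fold higher, with a median of -0.75 against 0.01 over all measured probe sets. PUB19 and PUB22 among the 3 are members chosen on the same ku80 values, so this count and median are partly set by the rule. In wild type 1 of the 8 was at least 2-fold lower. Over all measured probe sets, 5.22% were at least 2-fold lower and 2.79% at least 2-fold higher in ku80. In wild type 9.28% were at least 2-fold lower. The subset was drawn after values were seen from a wider list, mainly of U-box and RING ligases. In that list 6 of 16 measured genes were at least 2-fold lower in ku80 and 4 in wild type. These 16 included ATLIG4 and ATLP-1, which are not such ligases. ATLP-1 was counted in both the 6 and the 4, and ATLIG4 in neither.

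CML37 and CML38 were the named calmodulin-like members. CML37, whose transcript is known to accumulate after wounding and insect feeding, had intensities of 108.1 in untreated wild type, 142.0 in treated wild type, 92.0 in untreated ku80 and 21.9 in treated ku80. With treated ku80 under the floor, the gene was at least 3.29-fold lower with the drug in ku80 and was higher by 0.39 in wild type, a difference of 0.54 under quantile normalization, where it was no member. CML38, which is induced by wounding and low oxygen, had intensities of 534.6, 602.7, 677.7 and 288.4 in the same order. It was 2.35-fold lower in ku80 and 2.09-fold lower in treated ku80 than in treated wild type. CML42, from 255.5 to 114.6, was 2.23-fold lower in ku80 but missed the limits because untreated ku80 was 0.52 above wild type. Of 7 measured genes with a CML symbol, 3 were at least 2-fold lower in ku80 and 0 at least 2-fold higher, beside the 5.22% and 2.79% of all measured probe sets. CML37 and CML38 among the 3 are members chosen on the same ku80 values, so this count is partly set by the rule. In wild type 1 of the 7 was at least 2-fold lower and 1 at least 2-fold higher, beside 9.28% and 4.78% of all measured probe sets. CML43, CML41 and CML23 were higher in both genotypes. The differences were 0.90, 0.42 and 0.10 in ku80 and 0.55, 1.38 and 0.53 in wild type, so the family was split.

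The 4 lists of early stress genes (transcription factors, jasmonate genes, calcium and touch genes, and signalling and turnover genes) held 71 genes, of which 12 were named and measured. Of these 12, 8 were at least 2-fold lower in ku80 with bleomycin and 0 were at least 2-fold higher, with a median of -1.31 on the log2 scale, where 5.22% and 2.79% of measured probe sets were. The lists were drawn up with earlier results of these arrays known, and 4 of the 8 are members chosen on the same ku80 values, so the count describes these genes and supports nothing further. In wild type 0 of the 12 passed 2-fold in either direction and the median was 0.28, where 9.28% of measured probe sets were at least 2-fold lower and 4.78% higher. The members among the 8 were WRKY53, CML37, CML38 and PUB22, and the others were WRKY22, PUB23, STZ and ORA47. Under quantile normalization 2 of the 4 were still members (CML38 and PUB22), and 3 were under median ratio scaling and 3 with a floor of 56. STZ (ZAT10), a zinc finger repressor, was 2.04-fold lower in ku80 but higher by 0.56 in wild type. ORA47, an activator of jasmonate synthesis genes, was 3.39-fold lower in ku80, and already in untreated plants it was 4.41-fold lower in ku80 than in wild type. No named member came from the lists of DNA damage response, mitosis, S phase or clock genes, which held 2, 3, 1 and 1 measured genes. With 52 members among 8319 measured named probe sets, lists this small say nothing about these roles. No jasmonate or hypoxia gene of the lists was named.

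**Figure D2:**
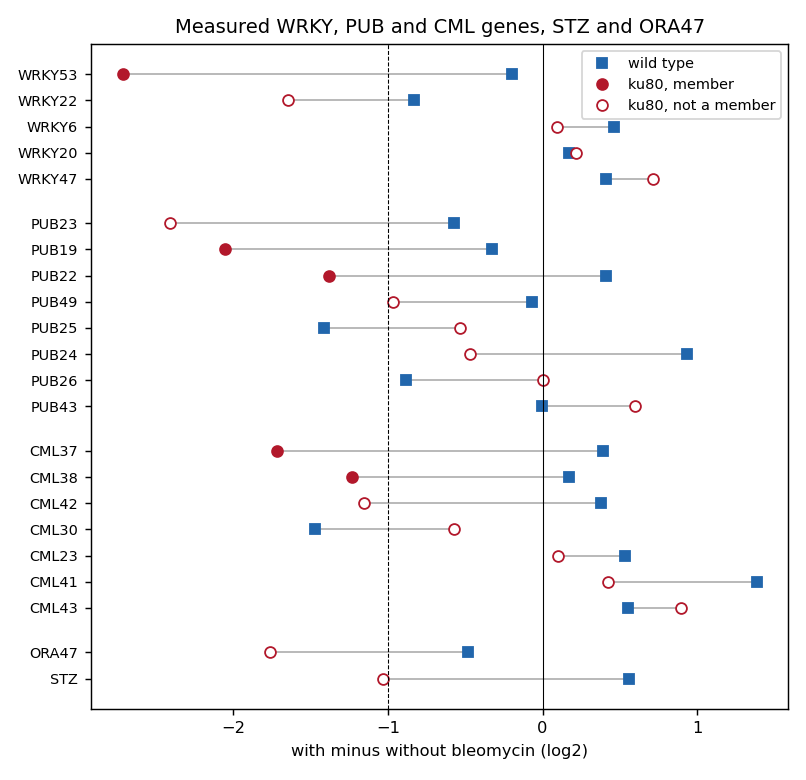
Log2 difference with minus without bleomycin for each named and measured WRKY, PUB and CML gene and for ORA47 and STZ. Wild type is shown as blue squares and ku80 as red circles (filled for members, open otherwise). Members lie left of the dashed line at -1 in ku80 with wild type near 0, while PUB23, WRKY22, CML42, STZ and ORA47 pass the line in ku80 and miss the limits on another difference.

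AT5G52050, listed as DTX50, encodes an efflux carrier of the detoxification family and stood out for its low value in treated ku80. Its intensity was 104.5 and 143.0 in untreated and treated wild type and 104.2 in untreated ku80, but 6.3 in treated ku80, under the floor. The gene was therefore at least 3.72-fold lower with the drug in ku80 and at least 5.11-fold lower in treated ku80 than in treated wild type. Its wild type difference of 0.45 became 0.51 and 0.60 under median ratio scaling and quantile normalization, and it was then no member. AT5G52020, which lies near it on chromosome 5 with 3 protein-coding genes between them in the TAIR10.1 gene table, was at 78.7, 79.5, 73.4 and 17.1 in the order of untreated and treated wild type, then untreated and treated ku80. It was at least 2.62-fold lower in ku80. The other pair of members within 10 genes of each other was AT1G76600 and CML38 on chromosome 1, with 4 genes between them. Named members lay on all 5 chromosomes, 17 on chromosome 1 (32.7% against 25.9% of measured named probe sets) and 6 to 12 on each of the others. Of the 68 named plastid probe sets 0 were members, which is near the share of 52 in 8319 over all measured named probe sets.

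Other named members with differences above 3-fold carry only locus names. AT4G29780 was bright, at 1165.7 and 901.9 in untreated and treated wild type and 978.1 in untreated ku80, and left that range only in treated ku80, at 201.2. It was 4.86-fold lower in ku80 and 4.48-fold lower than in treated wild type. Under quantile normalization its wild type difference was -0.63 in place of -0.37, outside the window. AT2G24600 had intensities of 238.9, 179.6, 229.5 and 53.8 in the same order and was 4.27-fold lower. For AT3G02840 the intensities were 433.3, 445.2, 346.7 and 101.0, so the 3 higher arrays lay within 1.28-fold of each other and treated ku80 was 3.43-fold below the lowest of them. AT1G76600 (702.1 to 204.8 in ku80), AT4G36500 (621.8 to 190.4) and AT2G36220 (372.5 to 121.0) were 3.43-fold, 3.27-fold and 3.08-fold lower, and AT1G76600 too was no member under quantile normalization. Among members without a listed gene, the most negative difference was from 218.4 to 43.0 in ku80 (5.08-fold), with 268.0 and 260.8 in untreated and treated wild type.

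**Figure D3:**
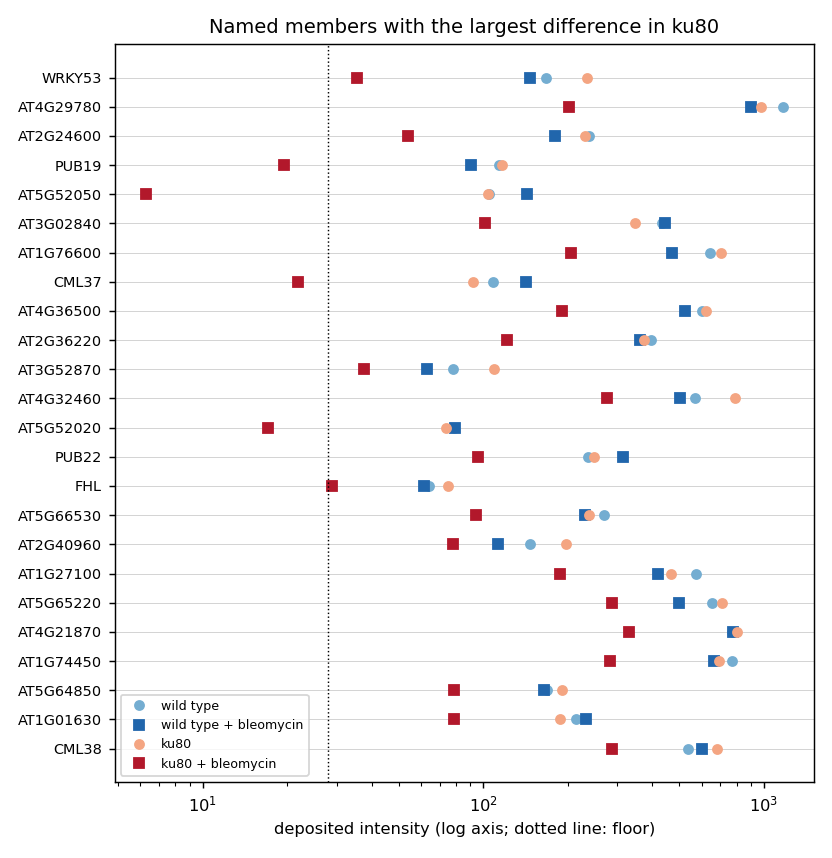
Deposited intensity on each of the 4 arrays (log axis) for the 24 named members with the largest difference in ku80, in order of that difference. Treated ku80 (red squares) lies left of the other 3 arrays for every gene, and the dotted line marks the floor of 28, under which PUB19, AT5G52050, CML37 and AT5G52020 lie in treated ku80.

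Smaller differences came from members of unlike roles. FHL, whose product helps to bring phytochrome A into the nucleus, was at 75.0 in untreated and 28.9 in treated ku80 (2.60-fold lower), with 64.2 and 61.6 in wild type. PME61, a pectin methylesterase of the cell wall, was at 69.3 and 30.0 in ku80 (2.31-fold lower). UPP, which salvages uracil, was at 91.0 and 40.8 (2.23-fold lower). AR781 was at 441.6 and 207.0, or 2.13-fold lower, with 521.7 and 514.5 in wild type. LCR69 (PDF2.2), a small cysteine-rich protein of the defensin family, was among the brightest members, at 1303.7 and 924.5 in untreated and treated wild type and 1676.6 and 824.4 in ku80. It was 2.03-fold lower in ku80, but only 1.12-fold below treated wild type. LCR69 and PME61 were no members under quantile normalization. AT4G21870 was the steadiest across the higher arrays, at 772.4, 773.0 and 803.6, and was at 329.7 in treated ku80 (2.44-fold lower). Of the 110 members, 8 were at the floor in treated ku80, 5 of them named, and the other 102 were above it on all 4 arrays.

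The wild type differences, which the rule held within 0.5, come from 1 pair of arrays and are given as a description. With bleomycin, 81 of the 110 members were also lower in wild type and 29 were higher, with a median of -0.22 on the log2 scale. Other array scalings raised the wild type difference of all measured probe sets by a median of 0.06 (median ratio scaling) and 0.13 (quantile normalization), and of the same 110 members 73 and 74 were then lower, with medians of -0.16 and -0.21. Among the 4565 measured probe sets inside both windows and at 56 or more in untreated ku80, members included, 51.0% were lower and the median was -0.01. The members therefore lay toward the lower side of the wild type window: 49 were lower there by more than 0.25, 49 lay within 0.25 of no difference and 12 were higher by more than 0.25. A lean toward the selected response was not particular to the members. Of 290 probe sets at least 2-fold lower in wild type and near level in ku80, 193 were lower in ku80, with a median of -0.12. Of 63 at least 2-fold higher in ku80 and near level in wild type, 15 were lower in wild type, with a median of 0.12. The named members with the most negative differences between the responses, ku80 minus wild type, were WRKY53 at -2.52, AT5G52050 at -2.35 and CML37 at -2.11, and 3 unlisted members lay between AT5G52050 and CML37. At the other end of the named members, LCR69 was at -0.53 and AT3G22210 at -0.57.

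**Figure D4:**
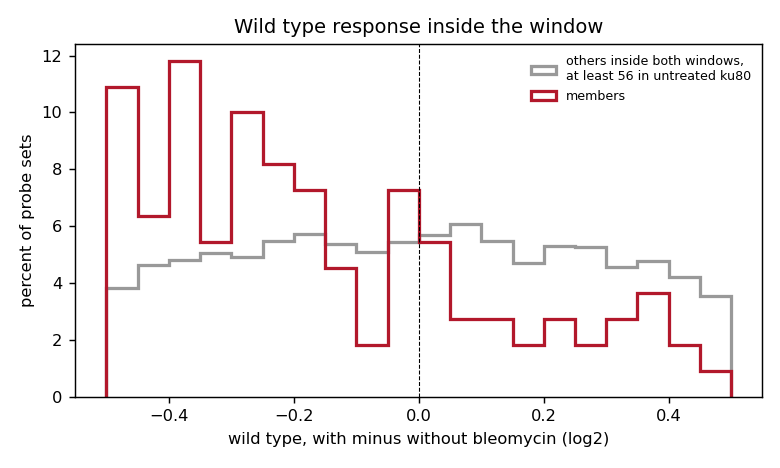
Percent of probe sets by log2 difference between treated and untreated wild type, in bins within the window of -0.5 to 0.5, for the 110 members (red) and for other measured probe sets inside both windows with at least 56 in untreated ku80 (grey). The members sit more on the left, with 81 of 110 below 0.

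The comparison of the genotypes under bleomycin follows from the limits, which make it negative for every member. It ranged from 1.11-fold to 6.07-fold lower in ku80, with a median of 2.09-fold, and 58 of the 110 were at least 2-fold lower, where 1.95% of measured probe sets were. Without bleomycin, 57 members were higher and 53 lower in ku80 than in wild type, with a median of 0.02. When the untreated ku80 array was left out and treated ku80 had to be at least 2-fold below both wild type arrays, 103 probe sets qualified. They shared 55 with the members, which is 50.0% of the members and 53.4% of the 103.

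Members were a minority of the probe sets that were lower in ku80. In all, 801 measured probe sets were at least 2-fold lower with bleomycin in ku80, and the 110 members made up 13.7% of them. The largest class, 374, matched between the untreated genotypes but was lower in wild type by more than 0.5, while 11 were higher in wild type by more than 0.5. A further 68 stayed near level in wild type but were above wild type in untreated ku80, 12 were below it, and 226 missed both limits. Across all classes, wild type was lower by more than 0.5 for 547 of the 801 (68.3%) and higher by more than 0.5 for 64.

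**Figure D5:**
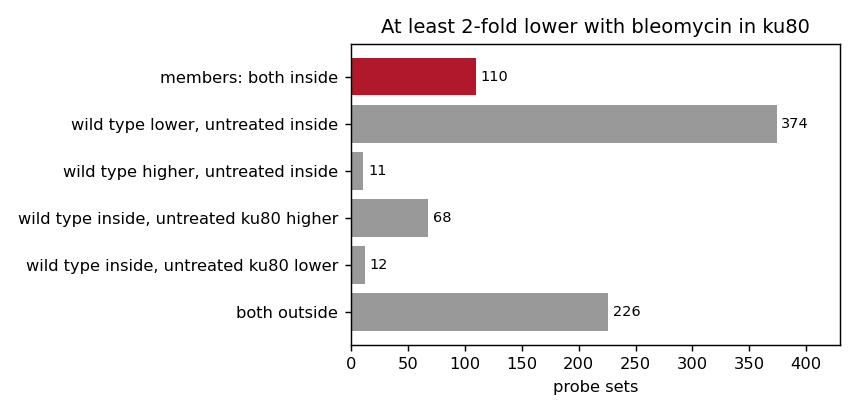
Number of probe sets at least 2-fold lower with bleomycin in ku80, split by whether the wild type response and the untreated genotype difference lay inside the limit of 0.5 (log2). The 110 members (red) stand beside 374 probe sets that matched between the untreated genotypes and were lower in wild type by more than 0.5.

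With the genotypes exchanged, 290 probe sets were at least 2-fold lower in wild type and near level in ku80, more than the 110 members. They came from 1424 measured probe sets at least 2-fold lower in wild type, and the members from 801 in ku80. The 290 had a median mean intensity of 89.0 against 215 for the members. Of the 290, 17 (5.86%) passed 3-fold in wild type, against 18 of 110 members (16.4%) in ku80. The floor bounds the fold that dim probe sets can reach, so these shares are not on equal terms. Among 364 probe sets at least 2-fold lower in both genotypes, with a median of 109, 120 (33.0%) passed 3-fold in ku80 and 187 (51.4%) in wild type. Of the 429 measured probe sets at least 2-fold higher in ku80, fewer than the 801 lower, 63 were near level in wild type by the same limits. Of these 63, 7 passed 3-fold. These counts were not tested against each other. At the limit itself, the members just inside were AT1G24530 (139.4 to 69.7, 2.00-fold) and AT3G54210 (783.8 to 391.8), with 1 unlisted probe set (1029.1 to 513.6). Just outside were AT1G64510 (518.6 to 260.1, 1.99-fold) and 2 unlisted probe sets (599.9 to 301.6 and 639.5 to 323.4). There were 34 members between -1.1 and -1 in ku80, and 34 probe sets within the windows between -1 and -0.9, so the limit cuts through a continuous range.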

How the data were processed

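RNA of 4 pools of 20 whole plants, 1 per group, was measured on ATH1 arrays. The authors deposited a linear intensity for each of 22810 probe sets on each array, and the equal trimmed means show that these had been scaled. Which software summarised the probes, and how background was corrected, is not given in the sources used here. The 64 control probe sets were set aside. Values under 28 were raised to 28 and log2 was taken, with no further scaling. Where the lower value lies at the floor, the fold is a bound and is written "at least". Names came from the platform table (14016 probe sets listed, 13513 with 1 gene, of which 13436 matched the RefSeq gene table, assembly TAIR10.1). Computation used Python 3.11.15 and pandas 2.3.3, and the selection code was tested on simulated data.

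Members and gene lists were chosen with earlier results of these data known. With 1 array per group no test was run, so differences are values only. Values are given for members with large differences, members of the gene lists and families, bright members and those near the limit. Alternatives changed the floor, the scaling, the limits and the probe sets used.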

Additional observations from a re-analysis of the deposited data

Results flagged for a closer look

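Of 29 members higher with bleomycin in wild type 14 were named, and a limit of 0.25 was set after values were seen. There were 6 named members that were lower with bleomycin in ku80 and higher by more than 0.25 on the log2 scale in wild type, so that the genotypes moved in opposite directions. The wild type differences were 0.45 at AT5G52050, 0.41 at PUB22, 0.39 at CML37, 0.36 at AT3G27540, 0.32 at AT1G19380 and 0.32 at AT1G23710. The members were chosen for unlike responses and each genotype has 1 pair of arrays, so these differences were not tested.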

How the results depend on the processing

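The count of 110 members moved with the floor and with the limits: it was 250 with no floor beyond 1, 18 with 3-fold and 393 with 1.5-fold in ku80, and 27 and 331 with windows of 0.25 and 1.0. It was 141 and 85 with floors of 14 and 56, 135 with median ratio scaling and 104 with quantile normalization, and 82 of the 110 were members under both scalings. Of the 52 named members, 36 were kept under both scalings, with 3 lost under median ratio scaling and 16 under quantile normalization, and 18 were lost with a floor of 56. WRKY53, AT5G52050 and AT3G52870 left the members under both scalings. WRKY53, AT5G52050 and, under quantile normalization, CML37 left because untreated ku80 or wild type passed 0.5 (0.50 and 0.54 for WRKY53), while their ku80 differences stayed at -2.77 and -2.72, -1.89 and -1.89, and -1.70. Of the listed early stress genes, 2 were members under quantile normalization, 3 under median ratio scaling and 3 with a floor of 56, in place of 4. With no floor beyond 1, 2063 probe sets were lower and 1846 higher in ku80, 2743 and 2894 in wild type, 511 lower in wild type alone, 205 higher in ku80 alone and 820 lower in both. With a floor of 56, the counts were 879 lower in wild type, 158 lower in wild type alone and 224 lower in both, against 1424, 290 and 364, and quantile normalization gave 190 lower in wild type alone. The cause was not tested. The wild type differences of the members under both scalings were added after seeing the data. Promoter motifs were planned and not run. No paired analysis was possible because each group has 1 array.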
